A study of Homo sapiens with 6 samples.

Results

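The tricarboxylic acid cycle and the routes by which pyruvate and glutamine enter it were examined as a set of 31 enzyme genes in RCC10, an established human cell line from clear cell renal carcinoma. The members were taken by gene symbol from the deposited count table, and all 31 were among its 19009 genes. The 6 libraries form 3 groups of 2: parental RCC10 cells, HIF-1/2alpha double knockout (DKO) cells, and cells reconstituted with VHL. DKO cells had been transduced with lentiviral guide RNAs and selected with puromycin, and the VHL-reconstituted cells had received VHL by lentivirus. All 3 groups were grown in DMEM with 10% serum, and messenger RNA was sequenced. The labels name no non-targeting guide and no empty vector, so effects of transduction or selection cannot be told apart from those of the HIF or VHL change. Whether the engineered cells were clones or pools, and whether replicates came from separate cultures, could not be read from the labels. The p-values therefore reflect the spread of these libraries alone, and that spread may be technical.

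The cycle oxidizes acetyl groups in the mitochondrion. Acetyl-CoA joins oxaloacetate to form citrate, and the carbon then passes through isocitrate, 2-oxoglutarate, succinate, fumarate and malate. Pyruvate enters through the pyruvate dehydrogenase complex or pyruvate carboxylase, and glutamine enters as glutamate and then 2-oxoglutarate. Clear cell renal carcinoma typically loses VHL, the part of a ubiquitin ligase that recognizes HIF alpha subunits, and the HIF transcription factors that then accumulate are known to raise PDK1, a kinase that restrains pyruvate dehydrogenase.

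Libraries held 22248126 to 29929116 counts. EPAS1, the gene of HIF-2alpha, was at 352 and 349 CPM (the gene’s count scaled to a common library size by TMM) in parental, 44.4 and 48.0 in DKO and 363 and 369 in VHL-reconstituted libraries. HIF1A was at 69.5 and 72.9, then 29.6 and 31.6, then 304 and 286 CPM in the same order, so both targeted transcripts were lower but present in DKO cells. VHL was at 38.8 and 39.5 CPM in parental, 43.3 and 47.3 in DKO and 652 and 723 in VHL-reconstituted libraries. All 6 renal epithelial markers, among them PAX8, PAX2, KRT8, KRT18 and CDH16, were detected in every library, with summed levels of 1740 to 1790 CPM in parental, 2260 to 2370 in DKO and 3030 to 3190 in VHL-reconstituted cells. PTPRC and CD3E of leukocytes, PECAM1 and KDR of endothelium and COL3A1 of fibroblasts had no count in any library. The leukocyte list of 5 summed to 60.3 to 64.5 CPM in parental, 20.9 to 22.2 in DKO and 23.4 to 26 in VHL-reconstituted cells, nearly all of it CD68, and the matched endothelial (3 of 4) and fibroblast (3 of 4) lists summed to at most 0.176 and 0.214 CPM. Whether these marker differences have a part in the results was not tested.

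In DKO against parental cells 13 of the 31 members rose, 9 fell and 9 did not pass an adjusted p of 0.05 (edgeR's quasi-likelihood test, adjusted over all 18273 genes tested). Of all genes tested, 26.6% rose and 27.5% fell. The 71% of members called compares with 54.1% of all genes tested, and with 70.5% of the genes kept by a filter on low counts, so the share is near the background of well-expressed genes. In VHL-reconstituted against parental cells 9 rose, 11 fell and 11 did not pass, that is 64.5% called against 54.2% of all genes (26.5% higher and 27.7% lower) and 70.5% of the filtered ones. Between the engineered lines 14 members were higher in DKO cells, 8 were lower and 9 did not pass, again 71% against 56% of all genes (28% higher and 28% lower) and 72.5% of the filtered ones. The median log2 fold change of the members was 0.07, -0.04 and 0.07 in the 3 comparisons, beside 0.00 over all genes in each. Both comparisons with parental cells use the same parental libraries. Without parental replicate 2 only 13 members were called in VHL-reconstituted cells, 4 higher and 9 lower.

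**Figure D1:**
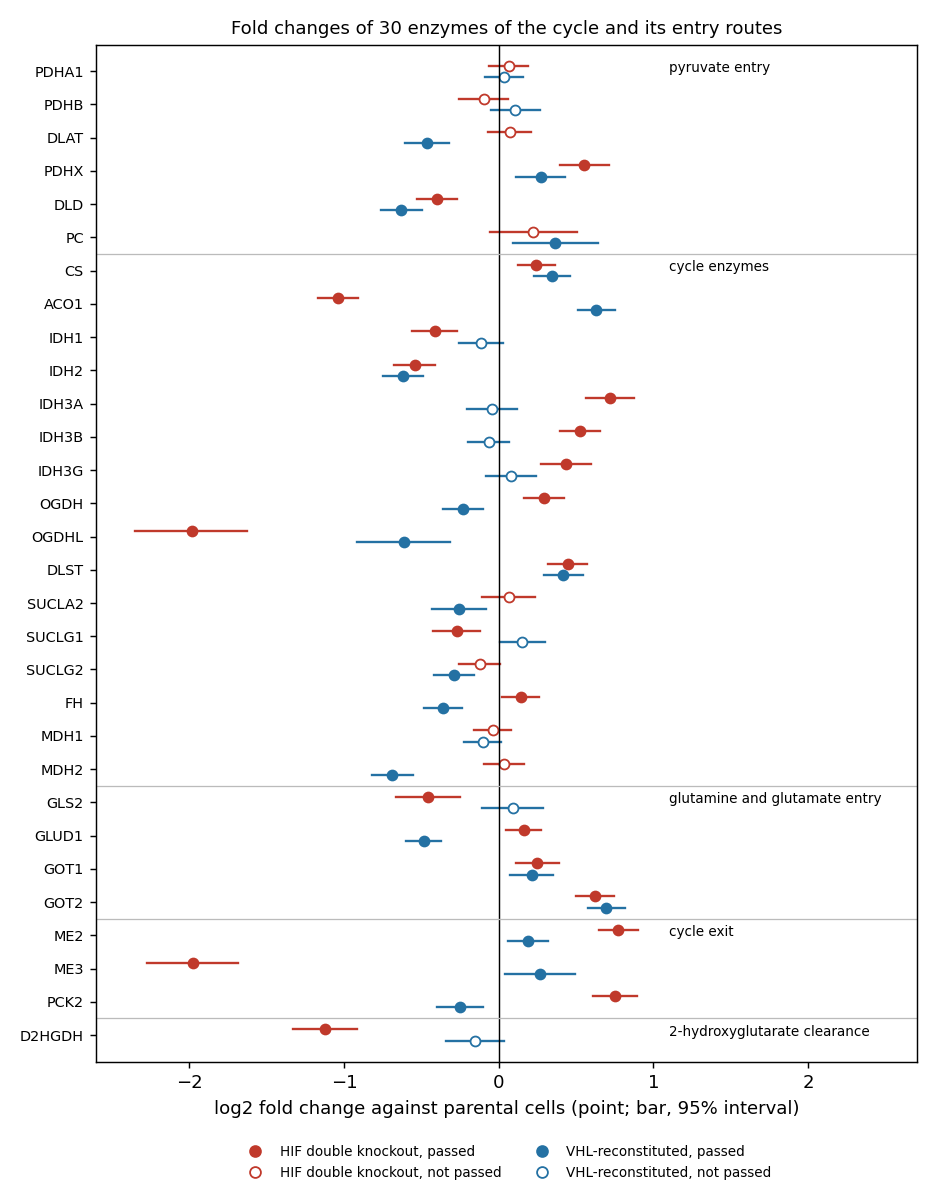
Log2 fold change (horizontal axis) of 30 members against parental cells, grouped by role, for DKO (red) and VHL-reconstituted cells (blue). Points are fitted values, bars are 95% intervals, and filled points passed an adjusted p of 0.05. OGDHL and ME3 lie furthest to the left in DKO cells, at -1.99 and -1.98, and ACO1 lies on opposite sides of 0 in the engineered lines. ME1, with at most 1 count in any library, is not drawn.

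Levels per kilobase of exon (CPM divided by the exon length in GENCODE 29, an approximation, the authors' annotation being not given in the sources used here) placed GLUD1 first in parental cells at 117, followed by MDH1 at 101, FH at 98.8, MDH2 at 90.4 and CS at 76.6. In VHL-reconstituted cells GOT2 was first at 101 and CS second at 97.2, while GLUD1 ranked 4 at 83.4. In DKO cells GLUD1 remained first at 130, ahead of FH at 109. At the other end, OGDHL was at 1.86, PC at 0.969 and ME1 at 0 per kilobase in parental cells. ME1, the cytosolic malic enzyme that makes NADPH, had 0 and 0 counts in parental, 0 and 1 in DKO and 1 and 1 in VHL-reconstituted libraries, which is under the floor of 3 counts (0.101 to 0.132 CPM in a library), so no fold is given. The summed level of the 31 members was 3023 and 2975 CPM in parental, 3260 and 3249 in DKO and 2855 and 2947 in VHL-reconstituted libraries.

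Promoter sequence is shown for 3 members whose changes are described below, ME3, GOT2 and ACO1. The core that HIF binds can read ACGTG, and only this form of it was searched. Each stretch runs from 194 to 45 bases upstream of the most upstream start in RefSeq (GRCh38.p14), 5′ to 3′ on the gene's strand, and capitals mark ACGTG or its reverse complement CACGT.
ME3 (chr11:86672661-86672810, minus strand): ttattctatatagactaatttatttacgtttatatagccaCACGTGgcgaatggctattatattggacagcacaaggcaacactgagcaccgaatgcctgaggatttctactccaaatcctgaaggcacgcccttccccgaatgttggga
GOT2 (chr16:58734361-58734510, minus strand): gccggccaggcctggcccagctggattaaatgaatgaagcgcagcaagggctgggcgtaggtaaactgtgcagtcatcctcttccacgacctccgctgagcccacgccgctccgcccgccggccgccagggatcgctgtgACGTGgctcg
ACO1 (chr9:32384449-32384598, plus strand): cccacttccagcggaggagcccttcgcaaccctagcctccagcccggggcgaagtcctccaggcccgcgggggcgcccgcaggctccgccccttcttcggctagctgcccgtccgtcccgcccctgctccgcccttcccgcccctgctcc
In ME3 the match is the palindrome CACGTG, which is also the E-box, and in ACO1 there is none. Over the window of 300 bases around the start, 7 of the 30 members with a RefSeq promoter (all but OGDH) held ACGTG on either strand, 23.3% beside 24.7% of the 12470 genes of the table with such a window. The 7 were PDHB, DLAT, PC, IDH3G, OGDHL, GOT2 and ME3. CACGTG was present in 10% of the members and 9.33% of all windows. A match is a description of the letters and does not show that a factor binds there.

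The pyruvate dehydrogenase complex is built from a decarboxylase (PDHA1 and PDHB), an acetyltransferase (DLAT), a dehydrogenase shared with the 2-oxoglutarate complex (DLD) and a binding protein that anchors DLD (PDHX). Of these genes and PC, pyruvate carboxylase, 1 rose, 1 fell and 4 did not pass in DKO cells. In VHL-reconstituted cells 2 rose, 2 fell and 2 did not pass. The shares called were 33.3% and 66.7%, beside 54.1% and 54.2% of all genes tested. DLD was at 108 and 112 CPM in parental, 83.2 and 83.4 in DKO and 69.8 and 72.1 in VHL-reconstituted libraries. The 3 groups do not overlap, with parental highest. DLD fell by 0.40 ± 0.06 (SE) on the log2 scale in DKO cells and by 0.63 ± 0.07 in VHL-reconstituted cells (adjusted p = 3.0e-06 and 6.8e-10, edgeR), and was higher in DKO than VHL-reconstituted cells (0.23 ± 0.07, adjusted p = 0.0028, edgeR).

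PDHX moved the other way: it rose 1.47-fold in DKO cells, from 33.2 ± 2.48 to 48.7 ± 2.64 CPM (mean ± SD, n = 2; adjusted p = 3.0e-07, edgeR), and 1.21-fold in VHL-reconstituted cells, a call lost without parental replicate 2 (adjusted p = 0.105). DLAT fell 1.38-fold in VHL-reconstituted cells (adjusted p = 1.1e-06, edgeR) and had a log2 fold change of 0.07 with a 95% interval of -0.07 to 0.21 in DKO cells. The ratio of DLAT to PDHX counts went from 2.08 and 2.41 in parental to 1.59 and 1.61 in DKO and 1.36 and 1.32 in VHL-reconstituted libraries. A count ratio within a library does not depend on library scaling, but between genes it reflects length as well as level, so only its change is read. PDHA1 did not pass in any comparison, with 95% intervals of -0.06 to 0.19 in DKO and -0.09 to 0.16 in VHL-reconstituted cells. PDHB passed only between the engineered lines (-0.20 ± 0.08, adjusted p = 0.0253, edgeR), which was lost without DKO replicate 1, DKO replicate 2 or VHL-reconstituted replicate 2 (adjusted p between 0.0611 and 0.192) and by DESeq2 (adjusted p = 0.0642). PC was low throughout, at 4.62 and 4.72 CPM in parental, 5.09 and 5.83 in DKO and 6.30 and 5.72 in VHL-reconstituted libraries. Its rise in VHL-reconstituted cells (adjusted p = 0.0225, edgeR) was lost without either parental library or VHL-reconstituted replicate 1 (adjusted p between 0.0849 and 0.14) and by DESeq2 (adjusted p = 0.153).

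At the start of the cycle, citrate and isocitrate are formed. CS, citrate synthase, which joins acetyl-CoA to oxaloacetate, rose 1.18-fold in DKO and 1.27-fold in VHL-reconstituted cells (adjusted p = 0.00064 and 6.8e-06, edgeR), the former lost without parental replicate 2 (adjusted p = 0.0577). ACO1 encodes the cytosolic aconitase, which in iron shortage acts as the RNA-binding iron regulatory protein. ACO1 was at 140 and 136 CPM in parental, 65.5 and 68.6 in DKO and 212 and 214 in VHL-reconstituted libraries. Each group's pair lies close together and the groups are far apart, on both sides of the parental level. ACO1 fell 2.05-fold in DKO cells (log2 fold change -1.04 ± 0.06) and rose 1.55-fold in VHL-reconstituted cells (0.63 ± 0.06), a 3.18-fold difference between the engineered lines (adjusted p = 1.8e-20, edgeR).

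Isocitrate is oxidized by the NAD-dependent IDH3 complex of the cycle, made of IDH3A, IDH3B and IDH3G, and by the NADP-dependent IDH1 in the cytosol and IDH2 in the mitochondrion, which also run in the reducing direction. All 3 IDH3 genes rose in DKO cells and none passed in VHL-reconstituted cells. IDH3A was at 28.1 and 28.8 CPM in parental, 46.0 and 47.5 in DKO and 26.4 and 28.8 in VHL-reconstituted libraries. IDH3B was at 109 and 103, then 157 and 147, then 98.3 and 104 CPM in the same order. For both genes the DKO libraries stand above the other 4, and parental and VHL-reconstituted values overlap. The log2 fold changes in DKO cells were 0.72 ± 0.08 for IDH3A, 0.52 ± 0.06 for IDH3B and 0.43 ± 0.08 for IDH3G (adjusted p = 1.6e-09, 1.9e-08 and 1.6e-05, edgeR). In VHL-reconstituted cells the 95% intervals were -0.21 to 0.12, -0.20 to 0.07 and -0.08 to 0.24. The direct test between the lines gave 0.76 ± 0.08, 0.59 ± 0.06 and 0.35 ± 0.08, all passed (adjusted p = 4.3e-10, 1.7e-09 and 0.000215, edgeR).

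IDH2 went the opposite way from the IDH3 genes in DKO cells. It was at 116 and 117 CPM in parental, 82.1 and 77.7 in DKO and 76.3 and 75.4 in VHL-reconstituted libraries, so parental cells stand above both engineered lines. It fell 1.46-fold and 1.54-fold (adjusted p = 1.0e-08 and 8.2e-10, edgeR), and the difference between the lines, 0.08 with an interval of -0.06 to 0.21, did not pass. IDH1 fell 1.33-fold in DKO cells (adjusted p = 7.0e-06, edgeR), although its DKO replicates were 88.6 and 107 CPM against 130 and 130 in parental. Its difference from VHL-reconstituted cells (-0.30, adjusted p = 0.00046, edgeR) was -0.17 without DKO replicate 1 (adjusted p = 0.0536). The ratio of IDH2 to IDH3A counts fell from 4.15 and 4.06 in parental to 1.78 and 1.64 in DKO and 2.89 and 2.62 in VHL-reconstituted libraries.

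**Figure D2:**
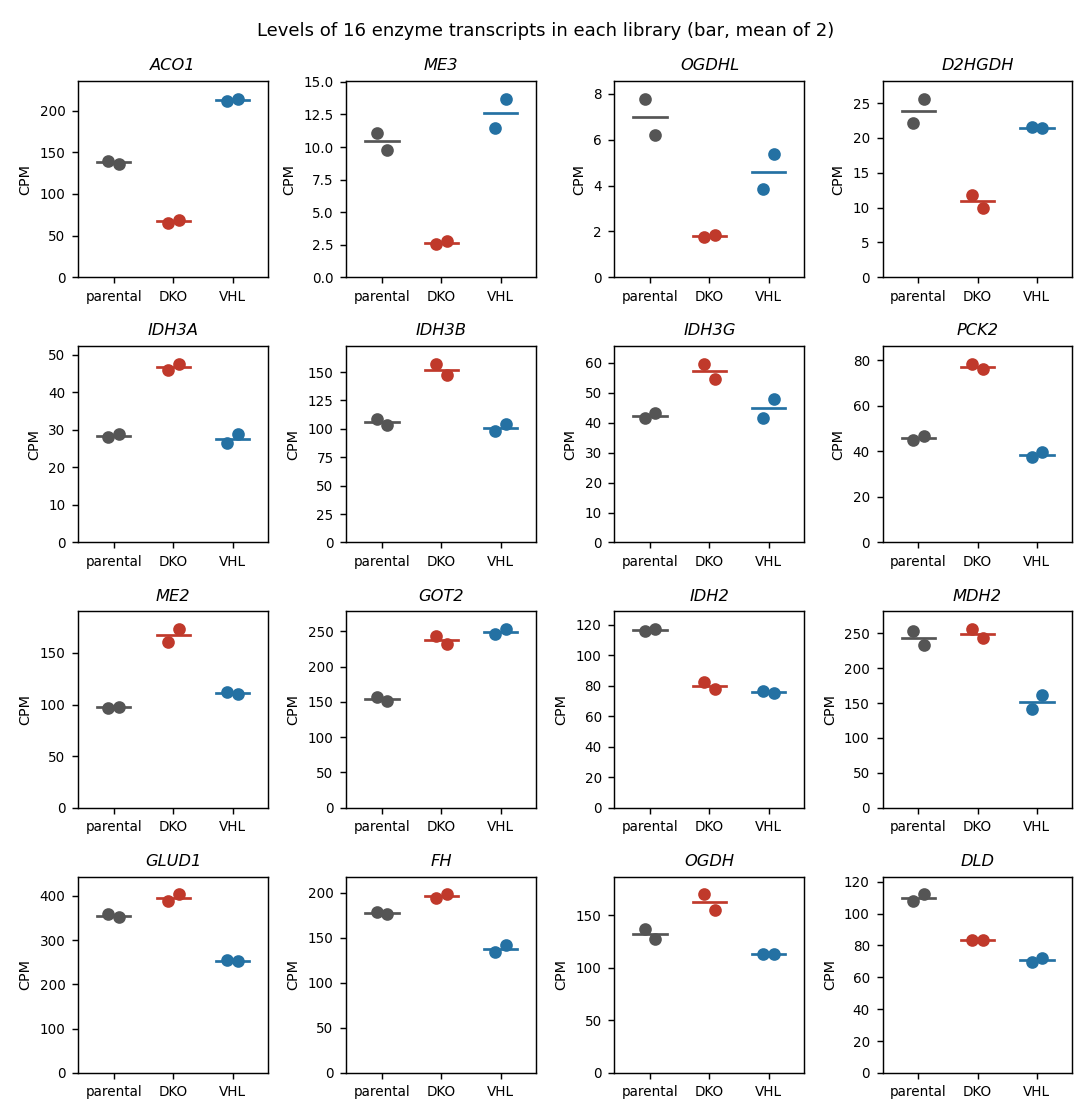
CPM (vertical axes, from 0) of 16 members in each library, with 2 points and their mean as a bar for parental, DKO and VHL-reconstituted (VHL) cells. ACO1, ME3, PCK2, GLUD1, FH and OGDH lie on either side of the parental level in the engineered lines, ME3 just above it in VHL. The IDH3 genes are raised in DKO only, and GOT2 is raised and IDH2 lowered in both.

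The next steps lead from 2-oxoglutarate to succinate. The 2-oxoglutarate dehydrogenase complex uses OGDH, the main decarboxylase, or its relative OGDHL, with DLST as succinyltransferase and DLD as above. OGDH was at 137 and 128 CPM in parental, 170 and 155 in DKO and 113 and 113 in VHL-reconstituted libraries, so DKO is highest and VHL-reconstituted lowest. It rose 1.23-fold in DKO cells and fell 1.17-fold in VHL-reconstituted cells (adjusted p = 0.00018 and 0.0025, edgeR). The fall was lost without parental replicate 1 (adjusted p = 0.126), whereas the 1.44-fold difference between the lines (adjusted p = 1.6e-08, edgeR) passed under every alternative run. OGDHL was far lower and fell in both lines. It was at 7.78 and 6.22 CPM in parental, 1.74 and 1.83 in DKO and 3.86 and 5.36 in VHL-reconstituted libraries, a 3.96-fold fall in DKO cells (-1.99 ± 0.18, adjusted p = 2.9e-11, edgeR). The 1.53-fold fall in VHL-reconstituted cells (adjusted p = 0.00062, edgeR) was lost without parental replicate 1 (log2 fold change -0.42, adjusted p = 0.14). OGDHL counts were 0.0569 and 0.0485 of OGDH counts in parental, and 0.0103 and 0.0118 in DKO libraries.

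DLST rose in both lines, 1.36-fold in DKO and 1.34-fold in VHL-reconstituted cells (adjusted p = 2.2e-07 and 7.0e-07, edgeR), with a difference between them of 0.03 and an interval of -0.10 to 0.15. The 3 subunits of the complex thus moved differently in VHL-reconstituted cells: OGDH and DLD fell and DLST rose. Succinyl-CoA ligase pairs SUCLG1 with SUCLA2 (ADP-dependent) or SUCLG2 (GDP-dependent). SUCLG1 was at 59.6 and 59.9 CPM in parental, 48.5 and 50.6 in DKO and 62.3 and 70.6 in VHL-reconstituted libraries. Its fall in DKO cells (-0.27 ± 0.07, adjusted p = 0.0022, edgeR) was lost without either parental library (adjusted p = 0.0579 and 0.0573). Its VHL-reconstituted value of 0.15 (adjusted p = 0.0763, edgeR) passed with median centring (0.21, adjusted p = 0.0134), with the filter on low counts (adjusted p = 0.035), with a replicate block (adjusted p = 0.0492) and without VHL-reconstituted replicate 1 (adjusted p = 0.01). Between the lines SUCLG1 was 1.34-fold lower in DKO cells (adjusted p = 8.0e-06, edgeR). SUCLA2 and SUCLG2 fell 1.2-fold and 1.22-fold in VHL-reconstituted cells (adjusted p = 0.0108 and 0.00028, edgeR). The SUCLA2 call was lost without either parental library or VHL-reconstituted replicate 1 (adjusted p between 0.0753 and 0.0827). Neither passed in DKO cells, where the intervals were -0.11 to 0.24 and -0.25 to 0.01. Between the lines SUCLA2 was 1.25-fold higher in DKO cells (adjusted p = 0.0015, edgeR). SUCLG2 was 1.12-fold higher (adjusted p = 0.0296, edgeR), a call lost in the pairwise fit and without either parental library, DKO replicate 2 or either VHL-reconstituted library (adjusted p between 0.0511 and 0.208).

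The last steps regenerate oxaloacetate from fumarate and malate. FH, fumarate hydratase, was at 179 and 176 CPM in parental, 194 and 198 in DKO and 134 and 142 in VHL-reconstituted libraries. It fell 1.29-fold in VHL-reconstituted cells (adjusted p = 4.4e-06, edgeR). Its 1.1-fold rise in DKO cells (adjusted p = 0.044, edgeR) was lost without any 1 parental or DKO library (adjusted p between 0.0782 and 0.205). MDH2, the malate dehydrogenase of the mitochondrion, was at 253 and 234 CPM in parental, 256 and 243 in DKO and 142 and 161 in VHL-reconstituted libraries. The VHL-reconstituted libraries are below the other 4, which overlap. MDH2 fell 1.61-fold in VHL-reconstituted cells (adjusted p = 9.5e-11, edgeR) and had an interval of -0.10 to 0.16 in DKO cells, and the lines differed 1.65-fold (adjusted p = 2.9e-11, edgeR). MDH1, its cytosolic counterpart in the malate-aspartate shuttle, did not pass in any comparison, with log2 fold changes of -0.04 and -0.11 against parental cells. The ratio of MDH1 to MDH2 counts was 0.74 and 0.828 in parental, 0.712 and 0.778 in DKO and 1.22 and 1.13 in VHL-reconstituted libraries.

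Of the 4 genes of glutamine and glutamate entry, 3 rose and 1 fell in DKO cells. In VHL-reconstituted cells 2 rose, 1 fell and 1 did not pass. The shares called were 100% and 75% of only 4 genes, beside 54.1% and 54.2% of all genes tested. GLUD1, glutamate dehydrogenase, which turns glutamate into 2-oxoglutarate, was at 358 and 351 CPM in parental, 389 and 403 in DKO and 254 and 253 in VHL-reconstituted libraries. It fell 1.40-fold in VHL-reconstituted cells (adjusted p = 6.8e-09, edgeR). Its 1.12-fold rise in DKO cells (adjusted p = 0.0142, edgeR) was lost without either parental library or DKO replicate 2 (adjusted p between 0.0699 and 0.123), and the lines differed 1.56-fold (adjusted p = 1.4e-11, edgeR). GOT2, the mitochondrial aspartate aminotransferase, was at 157 and 151 CPM in parental, 243 and 232 in DKO and 246 and 253 in VHL-reconstituted libraries. Both engineered lines stand above parental cells, with rises of 1.54-fold and 1.62-fold (adjusted p = 1.1e-10 and 1.1e-11, edgeR) and a difference between them of -0.07 with an interval of -0.19 to 0.05. GOT1, the cytosolic form, rose 1.19-fold and 1.16-fold, and both calls were lost without parental replicate 2 (adjusted p = 0.0615 and 0.101). The ratio of GOT1 to GOT2 counts was 0.406 and 0.399 in parental, 0.304 and 0.318 in DKO and 0.287 and 0.289 in VHL-reconstituted libraries.

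GLS2, the liver-type glutaminase, was low, at 15.4 and 15.2 CPM in parental, 11.5 and 10.8 in DKO and 15.4 and 17.2 in VHL-reconstituted libraries. It fell 1.37-fold in DKO cells (adjusted p = 0.00025, edgeR).

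**Figure D3:**
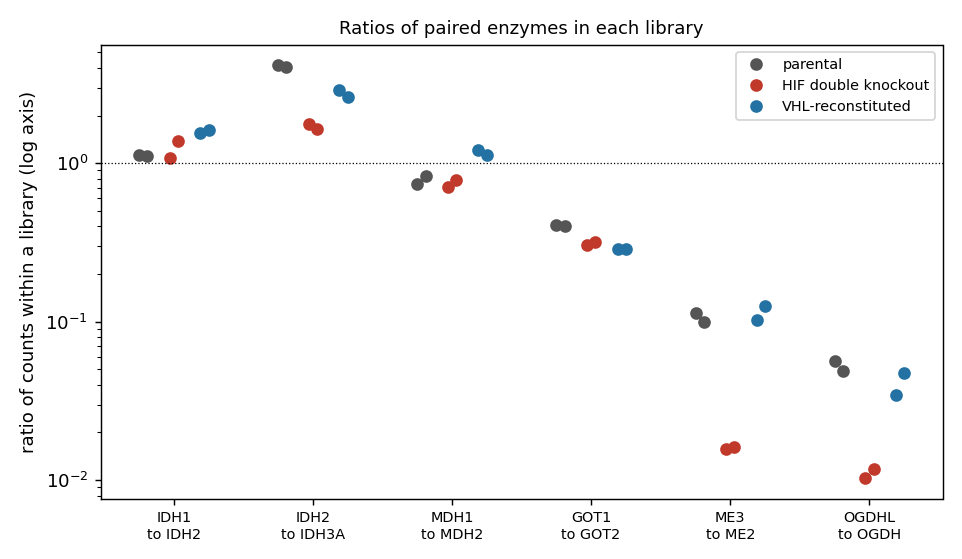
Ratio of counts (vertical log axis) within each library for 6 pairs of enzymes, with 2 points per group. ME3 to ME2 and OGDHL to OGDH are lowest in DKO cells, and MDH1 to MDH2 is highest in VHL-reconstituted cells. The ratios also reflect gene length, so their position against 1 is not read.

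Of the 4 genes of cycle exit, 2 rose and 1 fell in each comparison with parental cells, and ME1 had too few counts. That is 75% of only 4 genes, beside 54.1% and 54.2% of all genes tested. PCK2, the mitochondrial phosphoenolpyruvate carboxykinase that draws off oxaloacetate, was at 45 and 47 CPM in parental, 78.4 and 76.2 in DKO and 37.5 and 39.7 in VHL-reconstituted libraries. It rose 1.68-fold in DKO cells (adjusted p = 9.5e-11, edgeR). It fell 1.19-fold in VHL-reconstituted cells (adjusted p = 0.0044, edgeR), a call lost without parental replicate 2 (adjusted p = 0.0814), and the lines differed 2.00-fold (adjusted p = 1.7e-13, edgeR). Malic enzymes turn malate into pyruvate: ME2 and ME3 in the mitochondrion, with NAD and NADP respectively. ME2 was at 97.1 and 98.0 CPM in parental, 161 and 173 in DKO and 112 and 110 in VHL-reconstituted libraries. It rose 1.71-fold in DKO cells (adjusted p = 2.8e-12, edgeR). The 1.14-fold rise in VHL-reconstituted cells (adjusted p = 0.0119, edgeR) was lost without either parental library (adjusted p = 0.0956 and 0.077).

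ME3 was at 11.1 and 9.79 CPM in parental, 2.53 and 2.80 in DKO and 11.5 and 13.7 in VHL-reconstituted libraries. The groups do not overlap, with DKO far lowest and VHL-reconstituted just above parental. It fell 3.94-fold in DKO cells (-1.98 ± 0.14, adjusted p = 2.4e-13, edgeR) and was 4.74-fold lower there than in VHL-reconstituted cells (adjusted p = 5.7e-15, edgeR). Its value of 0.27 in VHL-reconstituted cells passed (adjusted p = 0.0413, edgeR) but did not in the pairwise fit (adjusted p = 0.0715), by DESeq2 (adjusted p = 0.193), or without any 1 library other than VHL-reconstituted replicate 1 (adjusted p between 0.0737 and 0.449). With the fall of ME3 and the rise of ME2, the ratio of their counts went from 0.114 and 0.100 in parental to 0.0157 and 0.0162 in DKO libraries, and was 0.102 and 0.125 in VHL-reconstituted ones. D2HGDH, the mitochondrial enzyme that clears D-2-hydroxyglutarate by oxidizing it to 2-oxoglutarate, was at 22.1 and 25.6 CPM in parental, 11.8 and 10.0 in DKO and 21.5 and 21.4 in VHL-reconstituted libraries. It fell 2.18-fold in DKO cells (-1.12 ± 0.10, adjusted p = 2.9e-11, edgeR), and in VHL-reconstituted cells the interval was -0.34 to 0.04. The difference between the lines was 1.96-fold (adjusted p = 7.3e-10, edgeR).

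Some member counts may hold reads of other genes. In GENCODE 29, exons of 13 members overlap a gene on the opposite strand, and the counting's strand setting could not be read from the labels. The overlap covers 71.6% of GLS2 exon bases (SPRYD4), 60.3% of IDH3A (ACSBG1) and 15.2% of IDH3G (SSR4). ACSBG1 had 0 to 2 counts in each library. SPRYD4 rose in both lines, by 0.32 and 1.05 on the log2 scale (adjusted p = 0.0029 and 3.8e-12, edgeR), while GLS2 fell in DKO cells. SSR4, which lies head to head with IDH3G, rose by 0.64 in DKO cells and had 0.04 in VHL-reconstituted cells (adjusted p = 4.2e-09 and 0.678, edgeR). IDH3G had 0.43 and 0.08 in the same order. Whether overlapping reads have a part in the changes of GLS2, IDH3A or IDH3G was not tested. Some members have pseudogenes named after them, with 5 for GLUD1 and 4 for GOT2, and how shared reads were assigned was not stated either.

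The 46 other genes of the pathway (neighbouring steps, supply of pyruvate and lipoate, membrane carriers, glutamine handling and use of citrate) were all in the table. In DKO cells 12 rose, 20 fell and 14 did not pass, with a median log2 fold change of -0.18. In VHL-reconstituted cells 14 rose, 19 fell and 13 did not pass, with a median of -0.18. The shares called were 69.6% and 71.7%, again close to the filtered background. Without any 1 library the counts called were 23 to 32 in DKO and 25 to 33 in VHL-reconstituted cells.

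Among the 11 genes of pyruvate supply and pyruvate dehydrogenase control, 7 fell and 2 rose in DKO cells, and 6 fell and 3 rose in VHL-reconstituted cells. That is 81.8% called in each, beside 54.1% and 54.2% of all genes tested and 70.5% of the filtered ones. PDK1 counts per PDHA1 count were 0.741 and 0.763 in parental, 0.0902 and 0.0828 in DKO and 0.0782 and 0.0726 in VHL-reconstituted libraries, while PDHA1 itself did not pass. PDK4, a starvation-induced kinase of the same family, was at 0.741 and 0.882 CPM in parental cells and had 3 counts over both DKO libraries, a 14.7-fold ratio with a counting interval of 4.7 to 74.2. In VHL-reconstituted libraries PDK4 had 4 and 2 counts, near the floor of 3, and fell 7.23-fold (adjusted p = 0.00016, edgeR). The 95% interval was wide, at 0.0555 to 0.32 of the parental level. PDK2, PDK3 and PDP2 fall outside the rule for named genes and were chosen after their values were seen. PDK3 was at 42.3 and 42.7 CPM in parental, 8.27 and 9.52 in DKO and 9.66 and 9.22 in VHL-reconstituted libraries, a fall in both lines (4.79-fold and 4.50-fold, adjusted p = 1.6e-19 and 3.5e-19, edgeR). PDK2 was at 24.2 and 21.3, then 3.01 and 3.26, then 24.0 and 22.7 CPM, so it fell 7.28-fold in DKO cells (adjusted p = 2.7e-19, edgeR), and its VHL-reconstituted value of 0.03 did not pass. PDP2, a phosphatase that reverses the action of these kinases, fell 1.60-fold in DKO and rose 2.09-fold in VHL-reconstituted cells (adjusted p = 4.8e-08 and 3.2e-13, edgeR).

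**Figure D4:**
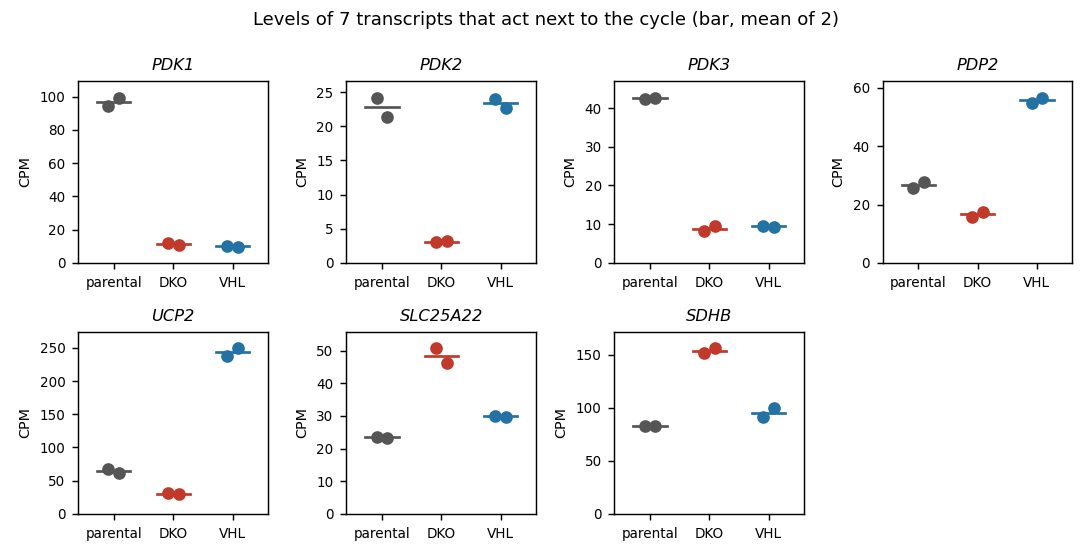
CPM (vertical axes, from 0) of 7 genes next to the cycle in each library, with 2 points and their mean as a bar per group. PDK1 and PDK3 are lowered in both engineered lines, PDK2 in DKO cells only, and UCP2 and PDP2 lie on opposite sides of the parental level. SDHB and SLC25A22 are highest in DKO cells, and VHL stands for VHL-reconstituted cells.

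Of 12 genes of succinate dehydrogenase and the steps beside it, 5 rose and 4 fell in DKO cells. In VHL-reconstituted cells 4 rose and 3 fell. The shares called were 75% and 58.3%, beside 54.1% and 54.2% of all genes tested. SDHB, the iron-sulfur subunit that turns succinate oxidation into electron flow, was at 83.2 and 83.2 CPM in parental, 152 and 156 in DKO and 91.1 and 100 in VHL-reconstituted libraries, and was 1.61-fold higher in DKO than VHL-reconstituted cells (adjusted p = 7.0e-11, edgeR). SDHA, SDHC and SDHD encode the other subunits and are added outside the rule for named genes. In DKO cells SDHA fell 1.2-fold (adjusted p = 0.00059, edgeR) and SDHC did not pass. SDHD rose 1.15-fold there (adjusted p = 0.0449, edgeR), with overlapping libraries. In VHL-reconstituted cells SDHC fell 1.71-fold (adjusted p = 1.1e-09, edgeR), and SDHA and SDHD did not pass. The assembly factors SDHAF1 and SDHAF2 rose in both lines. SDHAF2 rose 1.69-fold in DKO and 1.27-fold in VHL-reconstituted cells (adjusted p = 5.3e-10 and 0.00041, edgeR). SDHAF1 rose 1.66-fold and 2.1-fold (adjusted p = 4.2e-06 and 2.1e-09, edgeR). Of the 3 lipoate genes, which supply the cofactor of the dehydrogenase complexes, none passed in DKO cells, and LIAS, lipoic acid synthase, fell 1.2-fold in VHL-reconstituted cells (adjusted p = 0.0156, edgeR).

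Of 8 carriers of the inner membrane, 2 rose and 3 fell in DKO cells, and 4 rose and 3 fell in VHL-reconstituted cells. The shares called were 62.5% and 87.5%, beside 54.1% and 54.2% of all genes tested. UCP2, which exports carboxylic acids of the cycle from the mitochondrion, was at 66.9 and 60.9 CPM in parental, 31.4 and 29.8 in DKO and 238 and 249 in VHL-reconstituted libraries. It fell 2.09-fold in DKO and rose 3.81-fold in VHL-reconstituted cells, and the lines differed 7.95-fold (adjusted p = 5.4e-14, 1.6e-21 and 2.0e-25, edgeR). SLC25A22, a mitochondrial glutamate carrier, rose 2.07-fold in DKO and 1.27-fold in VHL-reconstituted cells (adjusted p = 4.9e-13 and 0.00048, edgeR). SLC25A13, an aspartate-glutamate carrier, fell 1.15-fold in DKO and 1.69-fold in VHL-reconstituted cells (adjusted p = 0.0083 and 3.7e-11, edgeR).

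Glutamine handling changed in parts: 2 of 8 genes rose and 4 fell in each comparison with parental cells. That is 75% called in each, beside 54.1% and 54.2% of all genes tested. SLC1A5, a plasma membrane glutamine transporter, rose 1.71-fold in DKO and 1.26-fold in VHL-reconstituted cells (adjusted p = 5.6e-13 and 1.0e-05, edgeR). GPT2, the mitochondrial alanine aminotransferase, rose 1.52-fold in DKO and 1.93-fold in VHL-reconstituted cells (adjusted p = 7.0e-08 and 4.4e-12, edgeR). GLUL, glutamine synthetase, fell 1.65-fold and 1.64-fold (adjusted p = 6.0e-12 and 7.3e-12, edgeR). GPT, the cytosolic form, had 19 and 7 counts in parental and 2 and 4 in DKO libraries (adjusted p = 0.0079, edgeR). Of the 4 genes that use citrate and oxaloacetate, ACSS2, which makes cytosolic acetyl-CoA from acetate, fell 2.57-fold in DKO and 1.2-fold in VHL-reconstituted cells. ACLY, which splits exported citrate, fell 1.43-fold and 1.25-fold (adjusted p = 8.6e-10 and 4.6e-06, edgeR).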

How the data were processed

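The authors deposited one table of whole-number counts per gene symbol for 6 libraries. The table is labelled as normalized, but its values are whole numbers with unequal library totals, and they were analysed as raw counts. Tools named per the submitters' processing notes are featureCounts 2.0.8 for counting, HISAT2 2.2.1 for alignment, limma 3.58.1, Trimmomatic 0.39 and FastQC 0.74; both hg38 and hg19 are listed, with no role given. The 18273 of 19009 genes with any count were tested with edgeR 4.0.16 in R 4.3.3: TMM scaling (factors 0.977 to 1.02), 1 model of 3 group means, quasi-likelihood test, Benjamini-Hochberg adjustment over all genes per comparison, threshold 0.05. CPM uses TMM library sizes, and SE and 95% intervals follow from the quasi-likelihood F statistic. The common dispersion gives a biological coefficient of variation of 4.41%. Intervals and floors from counts cover counting error only. Alternatives were DESeq2 1.42.0, RLE factors, median centring, filterByExpr, pairwise fits, a replicate block and leaving out each library. With 1 library left in a group, it is assumed to vary like the other groups. The procedure was also run on counts simulated from the dispersions fitted here, with most genes left unchanged. That run cannot test the replicate spread, or the scaling when many genes change. Per-library values are given for members past 0.05 with a 1.5-fold change in some comparison or called in opposite directions in both lines, with a few others. In the pathway list up to 2 genes of largest change are named per sublist, with the exceptions given above. Members and lists were chosen with earlier results of these data known. Of 19 cell type markers, CDH5 and LUM are not analysed here. SDHAF3 and SDHAF4 were matched by older symbols. Results for a few further genes are not reported here.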

Additional observations from a re-analysis of the deposited data

Results flagged for a closer look

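For 6 members the engineered lines departed from parental cells in opposite directions, both calls passing. The share of all genes with such opposite calls was not computed. As 54.1% and 54.2% of all genes tested were called against parental cells, the count of 6 is not read as particular to the members. For these 6 the direct comparison of DKO with VHL-reconstituted cells also passed (edgeR). Its log2 fold change was -1.67 for ACO1, -2.24 for ME3, 1.00 for PCK2, 0.64 for GLUD1, 0.525 for OGDH and 0.50 for FH. Both calls against parental cells passed under every alternative run for ACO1. For each of the other 5, leaving out at least 1 library ended 1 of its calls, as given above. The difference between the lines passed under every alternative run for all 6. Opposite calls against the same parental libraries already imply such a difference, so its passing adds no independent support.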

How the results depend on the processing

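No called member reversed direction under the 12 alternatives run. In DKO against parental cells, 9 of 13 rises and 8 of 9 falls held under all of them. In VHL-reconstituted cells 4 of 9 rises and 7 of 11 falls held, and between the lines 13 of 14 and 6 of 8. Without 1 library the members called in VHL-reconstituted against parental cells ranged from 13 to 19, with 4 to 9 higher, the lowest without parental replicate 2. In DKO against parental cells they ranged from 17 to 22. Median centring moved fold changes against parental cells by 0.05 and 0.06 (log2) and gave 22 and 21 members called. The replicate block gave 22, 21 and 22 members called in the 3 comparisons. Same-numbered replicates had correlations of 0.0759, 0.013 and 0.0128 in their deviations across genes, so the numbers were not taken as pairs. The block ended no call of a member and added SUCLG1 in VHL-reconstituted cells. Low counts limit ME1, PDK4, GPT, PSAT1, PCK1 and SLC25A18.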

Other observations

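Some enzymes and carriers that feed or drain the cycle in other cells were near 0 in RCC10. PSAT1, the aminotransferase of serine synthesis that makes 2-oxoglutarate from glutamate, had at most 7 counts in any library and passed in no comparison. PCK1, the cytosolic counterpart of PCK2, had 2 counts in parental replicate 1 and none elsewhere. SLC25A18, a glutamate carrier related to SLC25A22, had at most 2 counts in any library.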
